A study of Mus musculus with 70 samples.

Results

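The 10 genes described here are activators of the circadian clock and the transcription factors through which the clock reaches its output genes. They were taken by symbol from a table of 24346 genes: Arntl, Clock, Npas2, Rorb, Nfil3, Nr1d1, Nr1d2, Dbp, Tef and Hlf. All 10 had a mean of at least 1 FPKM and were among the 12994 genes tested. FPKM are fragments scaled to transcript length and to the mapped total of the library, so the values of different genes can be set side by side per length.

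Each of 70 male C57BL/6J mice, 12 weeks old and individually housed, gave 1 RNA-seq library from its dorsal hippocampus. The 7 groups hold 10 libraries each, and 5 of these come from each of 2 harvest cohorts. Mice of 6 groups had a 3-min object location memory (OLM) acquisition, a training too short to form long-term memory, 1 h before tissue was taken. Home cage mice had neither OLM nor exercise, and sedentary mice (0-0-0) had OLM without exercise. The other names give, in this order, days on a running wheel, days of rest and days of renewed running: 14-0-0 ran for 14 days, 14-7-0 and 14-14-0 then rested for 7 or 14 days, 14-7-2 ran again for 2 days after 7 days of rest, and 0-0-2 ran for 2 days only. According to the methods, all tissue was taken within a 4-h window on each of the 2 harvest days so as to limit circadian effects. The labels give the cohort of a library and not its hour of collection.

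The libraries held hippocampal markers, with medians of 145.7 FPKM for Neurod6 and 24.0 for Prox1. One library stood apart: in sedentary replicate 6, Neurod6 was 2.45 FPKM and a list of 4 dentate granule cell genes summed to 4.18 FPKM, beside 32.8 to 139.5 in the 6 other groups. Every comparison with sedentary includes it, and where the text says so values are given without it.

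In the clock, ARNTL (also called BMAL1) pairs with CLOCK or with its relative NPAS2 and drives genes that carry E-boxes. Among these are the repressors NR1D1 and NR1D2 (REV-ERB alpha and beta) and the PAR bZIP activators DBP, TEF and HLF. REV-ERB proteins and the ROR family, of which RORB is the neural member, compete for the same sites and repress or activate Arntl. NFIL3 binds the D-box sites of the PAR bZIP factors and represses there. In most tissues of a nocturnal animal Dbp and Nr1d1 therefore peak in the light phase, far from the peak of Arntl.

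The promoters were searched for the letters of sites that the members are known to bind, and those with a match are shown. All 10 genes matched a promoter in RefSeq (GRCm38.p6, the mm10 build of the files), with 15 annotated starts and 300 bases each, from 250 before to 50 after the start. The core of a REV-ERB or ROR site was searched as TAGGTCA and TGGGTCA on both strands, and 6.45% of 32851 promoters of that length hold it. Among the members it was found once at the second Arntl start, at position 30 from it in chr7:113207530-113207558 on the plus strand, and once at the Nfil3 start, at position -12 in chr13:52981034-52981062 on the minus strand. Capitals mark the core, which reads as its reverse complement in Nfil3:
Arntl, second start: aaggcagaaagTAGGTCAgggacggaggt
Nfil3: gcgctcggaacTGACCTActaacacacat
The E-box CACGTG is held by 7.15% of promoters, and among the members by both Tef promoters and no other. In capitals, it lies at position -127 from the first start in chr15:81802516-81802581 and at position -138 from the second in chr15:81811246-81811311, both on the plus strand:
Tef, first start: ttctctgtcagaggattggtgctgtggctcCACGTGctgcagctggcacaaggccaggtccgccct
Tef, second start: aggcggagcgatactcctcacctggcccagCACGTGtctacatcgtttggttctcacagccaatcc
The D-box, searched as TTATGTAA and TTACGTAA on both strands, is held by 1.06% of promoters and by none of these 15. A match is a stretch of letters and not a shown binding site, and a missing match says only that these letters are not in the window.

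Arntl and Dbp differed between the groups, in opposite directions. Arntl was low and Dbp high in the sedentary and 14-14-0 mice, whereas Arntl was highest and Dbp lowest in 14-0-0 and 0-0-2. Home cage mice, which did not run, had a mean Dbp of 11.8 FPKM, near the 11.7 of 0-0-2. Their mean Arntl was 14.2 FPKM. In 14-7-2, which ended on 2 days of running, mean Dbp was 13.3 FPKM and mean Arntl 14.6. Over all 70 libraries, limma's F test between the 7 groups with the harvest cohort as a covariate gave p = 1.739e-05 for Dbp and p = 3.376e-05 for Arntl. After Benjamini-Hochberg adjustment over 12994 genes these were 0.0119 and 0.0191, and 31 genes in all had an adjusted p under 0.05. At an unadjusted p under 0.05, 4 of the 10 members were called, Dbp, Arntl, Nr1d2 (p = 0.00348, adjusted 0.316) and Nfil3 (p = 0.0367, adjusted 0.577), beside 7.89% of all genes tested.

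**Figure D1:**
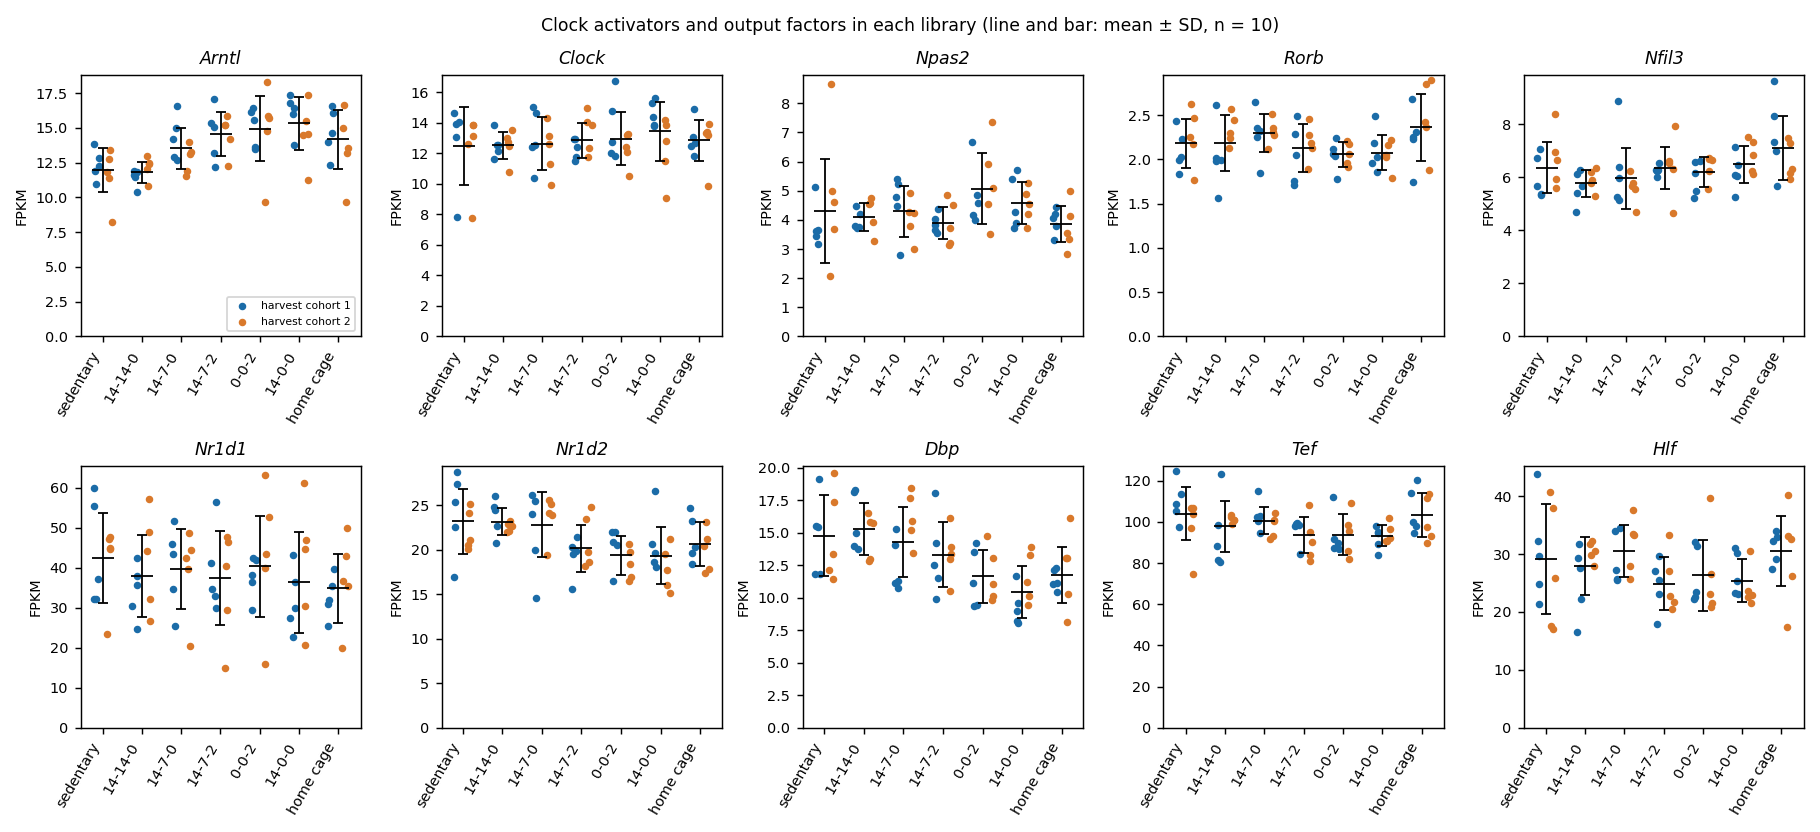
FPKM of each of the 10 genes (vertical axes, from 0) in the 70 libraries by group, with harvest cohort 1 in blue and cohort 2 in orange, and with the group mean ± SD as a line and bar (n = 10). Arntl lies lowest in sedentary and 14-14-0 and Dbp lies highest there, with overlapping ranges in every pair of groups.

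Arntl (ENSMUSG00000055116, chr7:113207465-113314126) encodes the constant partner of the activating pair. Its FPKM ran from 8.22 through a median of 12.1 to 13.9 in sedentary libraries and from 10.4 through 11.9 to 13.01 in 14-14-0. They ran from 11.2 through 15.8 to 17.4 in 14-0-0, and from 9.64 through 15.7 to 18.3 in 0-0-2. The middle of the order was taken by 14-7-0, with 11.5, 13.2 and 16.6 as lowest, median and highest, by home cage with 9.69, 14.3 and 16.7, and by 14-7-2 with 12.2, 15.1 and 17.0. The medians of 14-0-0 and 0-0-2 thus lie above every sedentary and every 14-14-0 library, while the lower ends of the ranges overlap.

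The mean Arntl level was 11.8 ± 0.774 FPKM (SD, n = 10) in 14-14-0, 11.9 ± 1.59 in sedentary, 13.5 ± 1.501 in 14-7-0, 14.2 ± 2.15 in home cage, 14.6 ± 1.58 in 14-7-2, 14.95 ± 2.34 in 0-0-2 and 15.3 ± 1.90 in 14-0-0. Neighbours in this order are close by the sorting itself. Their permutation p-values, adjusted over the 21 pairs of groups, were 0.0635 between sedentary and 14-7-0 and between 0.64 and 0.935 for the others. Of the 21 pairs, 8 differed at an adjusted p under 0.05. These were sedentary with 14-0-0 (adjusted permutation p = 0.00434), 14-7-2 (0.00731) and 0-0-2 (0.0166), and 14-14-0 with all groups other than sedentary (0.00273 to 0.0166).

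Against sedentary, limma's test on log2(FPKM + 0.1) called Arntl higher in 5 of 6 comparisons. The log2 difference was 0.36 ± 0.09 (SE) in 14-0-0 (p = 0.00058, adjusted 0.279), 0.32 ± 0.10 in 0-0-2 (p = 0.00509, adjusted 1) and 0.29 ± 0.08 in 14-7-2 (p = 0.00235, adjusted 0.847). It was 0.24 ± 0.10 in home cage (p = 0.0217, adjusted 1) and 0.18 ± 0.08 in 14-7-0 (p = 0.0394, adjusted 0.968). In 14-7-2 all 10 libraries lay above the sedentary median, and 9 of 10 did so in 14-0-0, 0-0-2 and home cage. In 14-14-0 the difference was -0.01 ± 0.07 (p = 0.921). None of these passes adjustment over all genes, and all 6 comparisons share the sedentary libraries. Without sedentary replicate 6, in which Arntl was lowest of all 70 libraries, the difference was 0.30 in 14-0-0, 0.26 in 0-0-2, 0.23 in 14-7-2 and 0.18 in home cage, all still called. In 14-7-0 it was then 0.12 (p = 0.069) and not called, and that call held in 12 of 20 fits that each left out 1 library. It was also lost with the dentate granule cell score as a covariate (0.11, p = 0.108). Replicate 6 is the sedentary library where that list summed to 4.18 FPKM, so these fits are not separate checks. Arntl shares 33 exonic bases with Gm45355 on the other strand.

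Dbp (ENSMUSG00000059824, chr7:45705088-45710203) encodes the PAR bZIP activator with the strongest daily rhythm in many tissues. In sedentary libraries its FPKM ran from 11.5 through a median of 14.4 to 19.6, and in 14-14-0 from 12.8 through 15.4 to 18.3. They ran from 8.09 through 9.90 to 13.9 in 14-0-0, from 9.37 through 11.1 to 14.8 in 0-0-2, and from 8.13 through 11.6 to 16.2 in home cage. The 14-7-0 libraries, with 10.7, 14.6 and 18.4, and the 14-7-2 libraries, with 9.88, 13.2 and 18.1, lay between. Every 14-0-0 library lay below the sedentary median.

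The order of mean Dbp levels was near the reverse of that of Arntl: 10.5 ± 2.01 FPKM (SD, n = 10) in 14-0-0, 11.7 ± 2.05 in 0-0-2, 11.8 ± 2.14 in home cage, 13.3 ± 2.48 in 14-7-2, 14.3 ± 2.69 in 14-7-0, 14.8 ± 3.10 in sedentary and 15.3 ± 1.98 in 14-14-0. Neighbours, close by the sorting itself, had adjusted permutation p from 0.246 to 0.912, and 7 of the 21 pairs differed at an adjusted p under 0.05. Dbp was lower in 14-0-0 than in 14-14-0 (adjusted permutation p = 0.00441), sedentary (0.00714), 14-7-0 (0.00979) and 14-7-2 (0.0372). It was also lower in 0-0-2 than in 14-14-0 (0.00714) and sedentary (0.0482), and lower in home cage than in 14-14-0 (0.00714). After 14 days of running, Dbp was thus lower in mice without a delay than in those with 7 or 14 days of rest. Between the 14-7-2 mice, which ran again, and the 14-7-0 mice the adjusted permutation p was 0.475.

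Against sedentary, Dbp fell by 0.49 ± 0.12 on the log2 scale (SE) in 14-0-0 (limma p = 0.000665, adjusted 0.279), by 0.33 ± 0.12 in 0-0-2 (p = 0.0109, adjusted 1) and by 0.32 ± 0.12 in home cage (p = 0.0152, adjusted 1). The difference was -0.14 ± 0.12 in 14-7-2, -0.04 ± 0.12 in 14-7-0 and 0.07 ± 0.11 in 14-14-0, and none of these was called. The differences without sedentary replicate 6 were -0.44 in 14-0-0, -0.28 in 0-0-2 and -0.27 in home cage, all still called. Dbp shares 539 exonic bases with Sphk2 on the other strand, and without strand their reads cannot be told apart. Sphk2 had 10.8 FPKM on average, did not differ between the groups (limma p = 0.834) and correlated with Dbp at r = 0.11 over the deviations of 70 libraries from their group-and-cohort means.

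**Figure D2:**
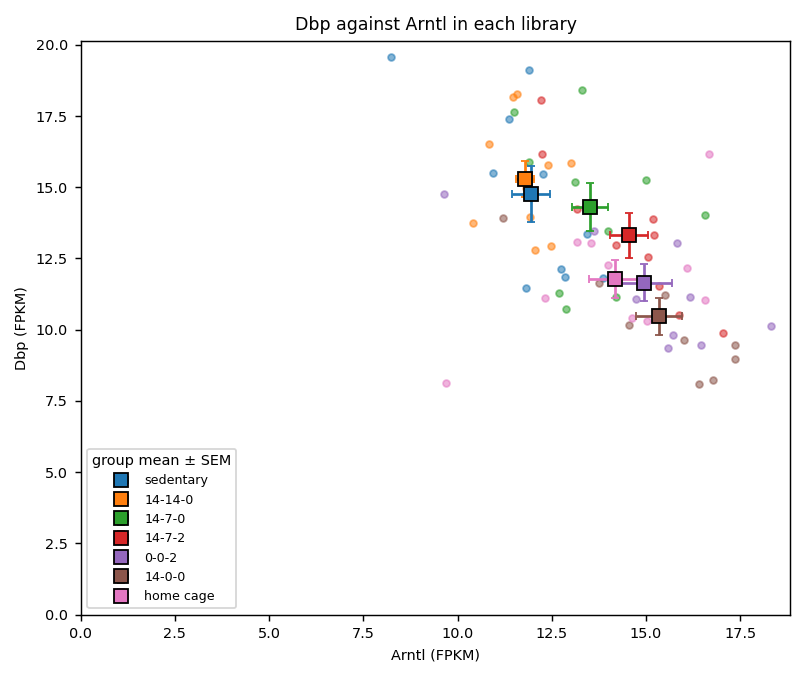
Dbp against Arntl, both in FPKM with axes from 0, for each of the 70 libraries (small points) and as group means ± SEM (squares). The sedentary and 14-14-0 means lie at the upper left, with Dbp of 14.8 and 15.3 FPKM, and the 14-0-0 and 0-0-2 means at the lower right, with Dbp of 10.5 and 11.7 FPKM.

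Within each library, Dbp exceeded Arntl in all 10 libraries of 14-14-0, in 5 of sedentary and of 14-7-0, in 3 of 14-7-2, in 2 of 0-0-2, in 1 of 14-0-0 and in none of home cage. The log2 ratio of Dbp to Arntl was 0.37 ± 0.22 (SD, n = 10) in 14-14-0 and 0.29 ± 0.47 in sedentary, against -0.56 ± 0.44 in 14-0-0, -0.36 ± 0.47 in 0-0-2 and -0.27 ± 0.22 in home cage. It was 0.07 ± 0.34 in 14-7-0 and -0.14 ± 0.42 in 14-7-2. Without replicate 6 the sedentary ratio was 0.18 ± 0.35 (SD, n = 9). This ratio is a description, since both genes were already seen to differ.

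Nr1d2 (ENSMUSG00000021775, chr14:18204054-18239127), the repressor REV-ERB beta, moved on the side of Dbp. Its FPKM ran from 16.9 through a median of 23.3 to 28.7 in sedentary, from 20.8 through 22.8 to 26.0 in 14-14-0 and from 14.6 through 24.1 to 26.1 in 14-7-0. They ran from 15.1 through 19.1 to 26.5 in 14-0-0, from 16.4 through 20.1 to 22.0 in 0-0-2, from 15.5 through 19.8 to 24.8 in 14-7-2 and from 17.4 through 20.4 to 24.7 in home cage. No 0-0-2 library reached the sedentary median. The lowest Nr1d2 value of all 70 libraries, 14.6 FPKM, was that of 14-7-0 replicate 4. In that library 10279 genes were listed at 0, against 6243 to 7199 elsewhere.

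Against sedentary, Nr1d2 fell by 0.26 ± 0.10 on the log2 scale (SE) in 14-0-0 (limma p = 0.016, adjusted 0.4), by 0.25 ± 0.09 in 0-0-2 (p = 0.011, adjusted 1) and by 0.19 ± 0.09 in 14-7-2 (p = 0.0472, adjusted 0.847). With sedentary replicate 6 left out these were -0.28, -0.27 and -0.21, all called. The call in 14-7-2 was kept in 7 of 20 fits that each left out 1 library. Against 14-14-0, which shares no library with sedentary, Nr1d2 was lower in 0-0-2 (adjusted permutation p = 0.00525 over the 21 pairs), 14-0-0 (0.0278) and 14-7-2 (0.0376).

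Nr1d1 (ENSMUSG00000020889, chr11:98767932-98775333), REV-ERB alpha, was not called in any comparison between groups with all libraries and no replicate block (F test p = 0.828). Of 20 home cage fits that each left out 1 library, 1 called Nr1d1 lower than sedentary (limma p = 0.0263, without sedentary replicate 9). With the replicate number as a block, limma called it lower than sedentary in 14-0-0 (p = 0.0213) and in home cage (p = 0.0365), at the same differences. It had the largest spread of the members. Within group and cohort the SD of its log2 values was 0.47, at the 89.5th percentile of the genes tested, and its FPKM ran from 15.0 to 63.1 over all libraries, a 4.21-fold range. The mean was highest in sedentary, 42.5 ± 11.2 FPKM, and lowest in home cage, 34.9 ± 8.57 (SD, n = 10). The difference from sedentary was negative in all 6 comparisons, between -0.28 ± 0.17 (SE) in home cage and -0.10 ± 0.18 in 14-7-0. Leaving out sedentary replicate 6 gave -0.25 and -0.08. Nr1d1 shares 263 exonic bases with Thra on the other strand, which had 324.5 FPKM on average, did not differ between the groups (limma p = 0.86) and correlated with Nr1d1 at r = 0.35 within group and cohort.

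The spread of Nr1d1 followed the replicate numbers of the labels. The 7 libraries with number 9, 1 in each group, had 15.0 to 26.8 FPKM with a mean of 20.3 ± 4.07 (SD, n = 7). The means of the other 9 numbers lay between 32.5 and 49.8 FPKM, and the number 9 library was the lowest of its group in 6 of 7 groups. An F test between numbers within cohorts, chosen after these values were seen, gave an adjusted p of 7.601e-08 for Nr1d1 in limma, and p = 0.116 without the number 9 libraries. In that test 35.3% of all genes tested had an adjusted p under 0.05, and of the members only Nr1d1 and Npas2 (adjusted p = 0.00281). Dbp (p = 0.868) and Arntl (p = 0.921) did not differ between the numbers. Each number occurs once in each group, and what the numbers stand for is not given in the labels.

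Of the other PAR bZIP genes, Tef was called against sedentary in 14-0-0 and Hlf in no group. Tef (ENSMUSG00000022389, chr15:81802421-81826863) had the highest level of the members, 98.0 FPKM on average, and the smallest spread within group and cohort, an SD of 0.14 on the log2 scale. It ran from 74.7 through a median of 106.1 to 124.7 FPKM in sedentary and from 84.0 through 93.3 to 101.8 in 14-0-0, where no library reached the sedentary median. The log2 difference, -0.15 ± 0.07 (SE), was called (limma p = 0.0405, adjusted 0.518) and stayed called in 8 of 20 fits that each left out 1 library. It was lost with the choroid plexus score in the fit (-0.11, p = 0.212), with a replicate block (p = 0.0706), with Cyber-T (p = 0.133) and in cohort 2 alone (-0.04, p = 0.695). The difference without sedentary replicate 6 was -0.20 (p = 0.000453). Tef shares 193 exonic bases with Gm17597 on the other strand. Differences in 14-7-2 (-0.14 ± 0.07, p = 0.0716) and 0-0-2 (-0.14 ± 0.08, p = 0.0756) were of the same size and not called. Without sedentary replicate 6, the library in which Tef was lowest, they were -0.19 (p = 0.0036) and -0.20 (p = 0.0051) and were called.

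Hlf (ENSMUSG00000003949, chr11:90336536-90390895) was called by limma in no comparison with sedentary, with or without sedentary replicate 6. The F test gave p = 0.209, and p = 0.0251 with the oligodendrocyte score. Of the 21 pairs of groups, 3 had an unadjusted permutation p under 0.05 for Hlf and 0 an adjusted one. Its mean lay between 24.9 ± 4.62 FPKM (SD, n = 10) in 14-7-2 and 30.5 ± 6.01 in home cage, and its lowest and highest libraries, at 16.5 and 43.9 FPKM, belonged to 14-14-0 and sedentary. Nfil3 (ENSMUSG00000056749, chr13:52967209-52981073), the repressor at the same D-box sites, was called by the F test over the 7 groups and in none of the comparisons with sedentary. The F test call held in 58 of 70 fits that each left out 1 library (p up to 0.11, without home cage replicate 2), and p was 0.3 with all home cage libraries left out and 0.129 with all 14-14-0 libraries left out. Its mean was highest in home cage, 7.12 ± 1.20 FPKM, and lowest in 14-14-0, 5.77 ± 0.523, and this pair differed (adjusted permutation p = 0.0443 over 21 pairs).

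Before any alternative fit, limma called only Arntl among the activators. Clock (ENSMUSG00000029238, chr5:76209868-76304792) had 12.8 ± 1.64 FPKM (SD, n = 70), close to the 13.8 ± 2.13 of Arntl, and its group means lay between 12.5 and 13.4 FPKM (F test p = 0.893). Npas2 (ENSMUSG00000026077, chr1:39193731-39363236), the relative of Clock that is used in the forebrain, had 4.30 ± 1.03 FPKM and reached 5.07 ± 1.22 in 0-0-2 (log2 difference from sedentary 0.29 ± 0.19 SE, p = 0.142). Its highest library, sedentary replicate 6 with 8.66 FPKM, weighs on that comparison, and without it the difference was 0.41 (p = 0.0173). Over the 7 groups the F test gave p = 0.106 for Npas2. It gave p = 0.0246 with a replicate block in place of the cohort term and p = 0.00299 with the neocortex score. Of the 21 pairs of groups, 5 had an unadjusted permutation p under 0.05 for Npas2 and 0 an adjusted one. Rorb (ENSMUSG00000036192, chr19:18930605-19111196), the least abundant member at 2.18 ± 0.276 FPKM, was not called in any group (F test p = 0.189).

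**Figure D3:**
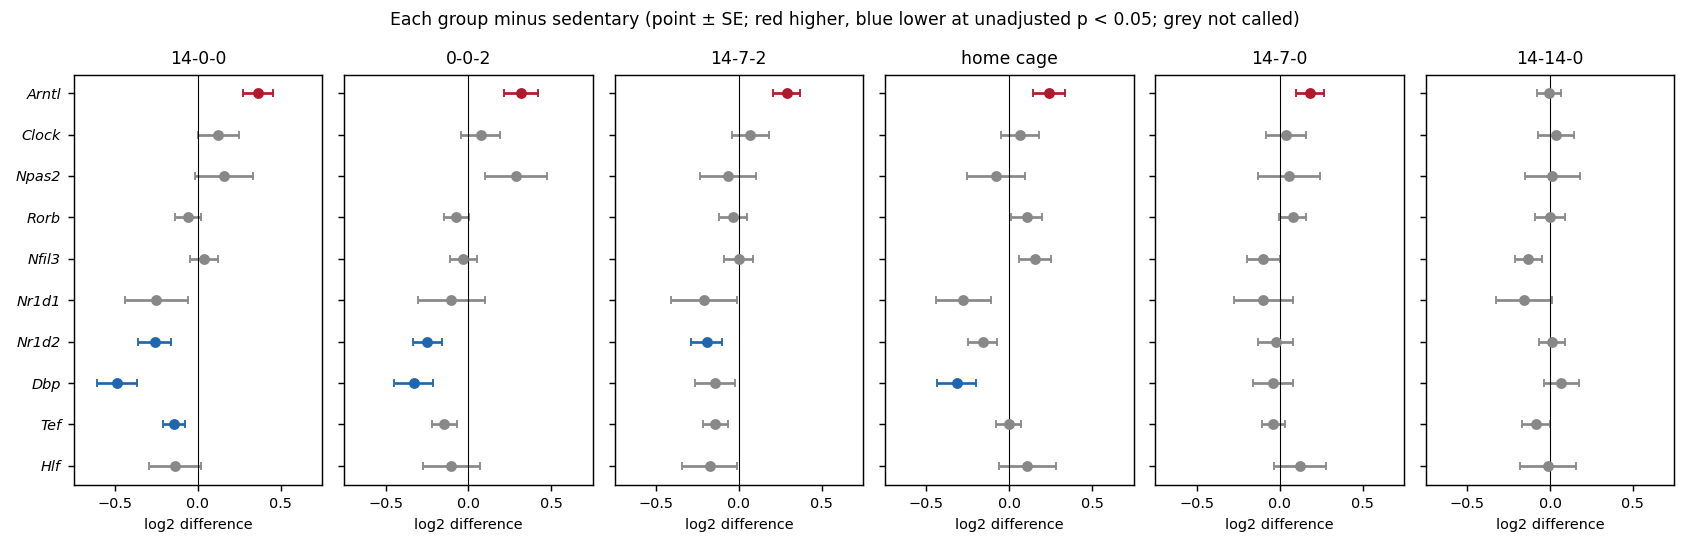
Log2 difference of each group from sedentary (point ± SE) for the 10 genes, in 1 panel per group; red and blue mark genes called higher and lower at an unadjusted p under 0.05, and grey marks genes not called. Arntl lies to the right of 0 in all panels except 14-14-0, and Dbp and Nr1d2 are called lower in 14-0-0 and 0-0-2.

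In counts, 14-0-0 had 1 member called higher and 3 lower, where 6.11% and 3.04% of all genes tested were called in those directions. The 0-0-2 group had 1 higher and 2 lower, beside 1.14% and 1.23%, and 14-7-2 had 1 higher and 1 lower, beside 2.07% and 2.32%. Home cage had 1 higher and 1 lower, beside 1.22% and 1.08%. In 14-7-0 only Arntl was called, beside 1.6% higher and 1.66% lower. In 14-14-0 none was called by limma at an unadjusted p under 0.05, beside 3.19% and 1.75%, and none by Cyber-T or by permutation. No gene of the table had an adjusted p under 0.05 in any of the 6 comparisons. The median log2 difference over the 10 members lay between -0.10 in 14-7-2 and 0.03 in home cage, and over all genes tested between -0.01 and 0.01.

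The 2 harvest cohorts, taken on separate days, were then compared. With the group as a covariate, limma called none of the 10 between cohorts at an unadjusted p under 0.05, where 3.58% of all genes tested were called higher and 8.29% lower in cohort 2. After adjustment these shares were 0.131% and 0.454%. Dbp had 12.7 ± 2.90 FPKM (SD, n = 35) in cohort 1 and 13.5 ± 2.75 in cohort 2 (log2 difference 0.10 ± 0.06 SE, p = 0.101). Arntl had 14.1 ± 2.00 and 13.4 ± 2.25 (-0.07 ± 0.05, p = 0.118). The smallest p was that of Rorb, 0.0729, which was higher in cohort 2 in 6 of 7 groups.

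The difference from sedentary was of the same sign in both cohorts for Arntl in 14-0-0 (0.37 in cohort 1 and 0.35 in cohort 2 on the log2 scale), 0-0-2 (0.28 and 0.35), 14-7-2 (0.23 and 0.35), home cage (0.25 and 0.24) and 14-7-0 (0.20 and 0.16). For Dbp it was -0.65 and -0.33 in 14-0-0, -0.35 and -0.31 in 0-0-2, and -0.35 and -0.29 in home cage. In 14-7-0, Dbp was below sedentary in cohort 1 (-0.23) and above it in cohort 2 (0.15). That difference between cohorts was 0.38 ± 0.23 (SE, limma interaction p = 0.116). None of the 60 interaction tests of the members was called at an unadjusted p under 0.05 (smallest p = 0.07945). The share of all genes tested that was called was 2.79% for 14-0-0, 0.362% for 14-7-0, 2.42% for 14-7-2, 2.03% for 14-14-0, 1.48% for 0-0-2 and 0.423% for home cage. Without sedentary replicate 6, 1 of the 60 was called.

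**Figure D4:**
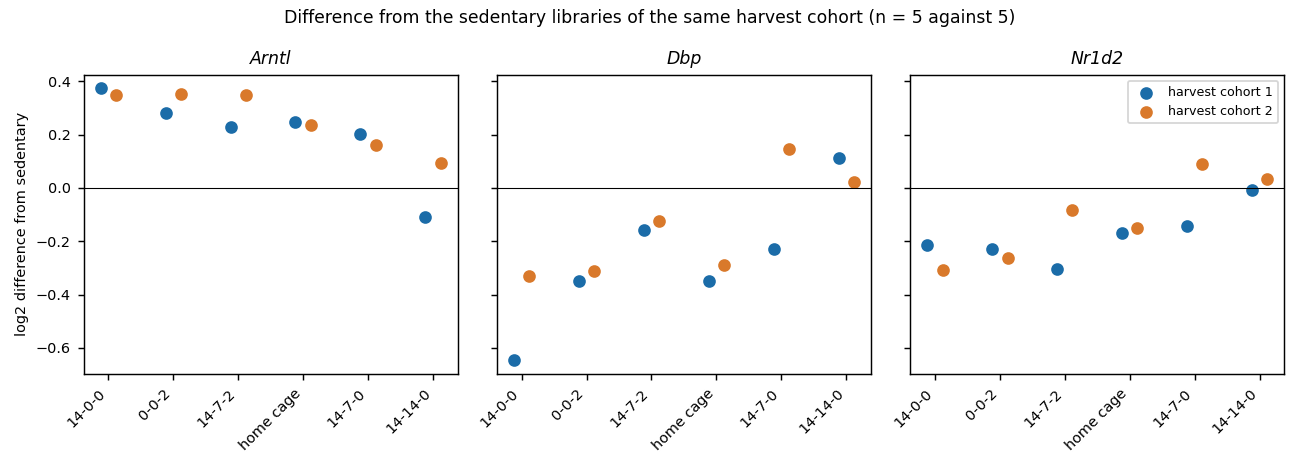
Log2 difference of each group from the sedentary libraries of the same harvest cohort (5 against 5) for Arntl, Dbp and Nr1d2, with cohort 1 in blue and cohort 2 in orange. For Arntl both cohorts lie above 0 in all groups except 14-14-0, and for Dbp both lie below 0 in 14-0-0, 0-0-2, 14-7-2 and home cage.

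Whether the members rise and fall together from mouse to mouse was examined over the deviations of the 70 libraries from the means of their group and cohort. Of the 45 pairs, 8 had an adjusted permutation p under 0.05, 6 positive and 2 negative. Tef and Hlf had the highest correlation (r = 0.62, rho = 0.62, adjusted permutation p = 0.000225, built on the smallest p that 100000 permutations can give). It was 0.70 in cohort 1 and 0.58 in cohort 2, and 0.58 without the 2 libraries farthest from the median of Tef. Dbp correlated with neither at that level, with r = 0.03 for Tef and 0.29 for Hlf (adjusted permutation p = 0.872 and 0.173).

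Dbp correlated negatively with Clock (r = -0.53, rho = -0.49, adjusted permutation p = 0.0006 for r). The value was -0.35 in cohort 1 and -0.68 in cohort 2, and -0.45 without the 2 libraries farthest from the median of Clock. Between Dbp and Arntl, r was -0.36 (adjusted permutation p = 0.0642) and rho -0.42 (adjusted 0.00977), with r of -0.44 and -0.32 in the cohorts and -0.26 without the 2 farthest libraries. Within groups the correlation of Dbp and Arntl was thus negative too, but it passed adjustment by rank and not by r. Npas2 with Hlf (adjusted permutation p = 0.0189 for rho) and Rorb with Tef (0.0471) also passed by rank only. Without sedentary replicate 6, r between Dbp and Arntl was -0.30. Arntl with Nr1d2 (r = -0.18) and Nr1d1 (-0.23), and Dbp with Nr1d2 (0.24) and Nr1d1 (0.21), passed adjustment by neither.

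The REV-ERB genes did not correlate with each other (r = -0.13, rho = -0.12, adjusted permutation p = 0.463). Nr1d2 correlated with Clock (r = 0.53, rho = 0.43, adjusted permutation p = 0.00126) and Hlf (r = 0.42, rho = 0.42, 0.0039) and negatively with Nfil3 (r = -0.48, rho = -0.40, 0.00418), with 0.47, 0.40 and -0.39 without the 2 farthest libraries. Nr1d1 correlated with Npas2 (r = 0.61, rho = 0.59, adjusted permutation p = 0.000225) and Hlf (r = 0.36, rho = 0.34, 0.0404), with 0.62 and 0.35 without the 2 farthest libraries. Rorb correlated with Hlf (r = 0.52, rho = 0.45, 0.00124, and 0.48 without the 2 farthest). With the mean of each replicate number also removed, r fell to 0.29 for Nr1d1 with Npas2 and to 0.18 for Nr1d1 with Hlf, and was -0.37 for Dbp with Arntl and -0.56 for Dbp with Clock.

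**Figure D5:**
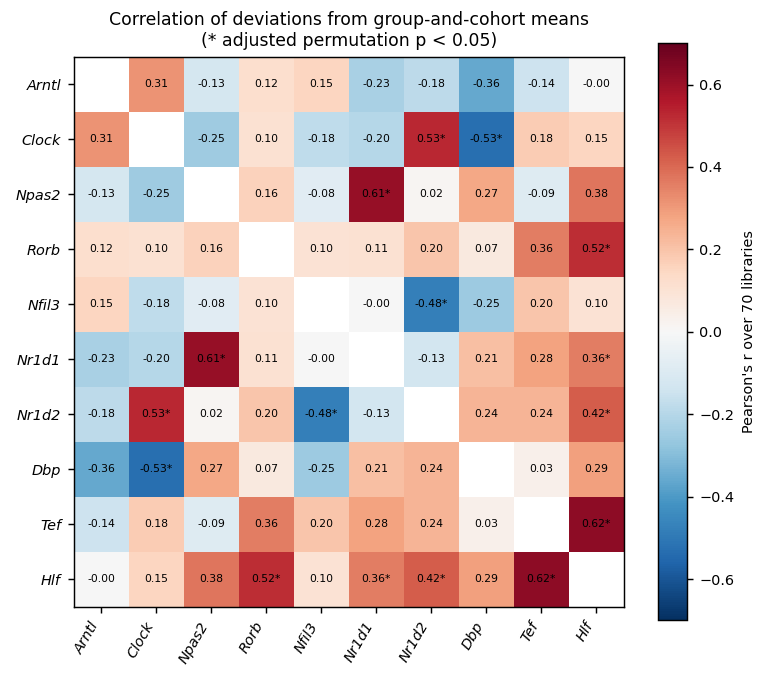
Pearson's r between each pair of the 10 genes over 70 libraries, on deviations from the group-and-cohort means; stars mark an adjusted permutation p under 0.05. Tef with Hlf (0.62) and Npas2 with Nr1d1 (0.61) are highest, and Clock with Dbp (-0.53) is lowest.

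Marker lists of cell types moved with several members in the same deviations, and their part in the correlations was not tested. The r with the mean of the inhibitory neuron list was 0.70 for Npas2, 0.59 for Nr1d1 and -0.54 for Clock. The r with the CA1 pyramidal cell list was 0.55 for Arntl, and with the dentate granule cell list 0.54 for Arntl and 0.48 for Tef. Sedentary replicate 6, where the dentate list summed to 4.18 FPKM, had the lowest Arntl, Clock and Tef of the 70 libraries. It also had the highest Npas2. These r values include that library, and none is given without it. In bulk tissue, fewer cells of a type and less RNA per cell cannot be told apart. For Dbp the values over the 12 lists lay between -0.41 (CA3 pyramidal cells) and 0.42 (neocortex). Nr1d1 had an r of -0.48 with the choroid plexus list.

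Of all 12993 other genes, Ciart, a repressor of the ARNTL and CLOCK pair, had the highest correlation with Dbp (r = 0.60, 0.45 and 0.70 in the cohorts). Then came Hes6 (0.54), Vmac, Samd10, Prkch, Kptn, Zswim7, Txndc11, Marcksl1 and Smpd2 (0.50 to 0.52). The lowest were Trak2 (-0.70), Ulk2 (-0.66), Hmgcs1 (-0.62), Erc1 (-0.62) and Frmpd4 (-0.61). Clock ranked 89th from the bottom, and Arntl 1073rd.

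The genes most like Arntl were Kcnab1 (r = 0.79), Pex5l (0.77), Epha7 (0.76), Arhgap12 (0.75) and Ppapdc2 (0.74), followed by Grem1, Wnt2, Mylk3, Scn3b and Asb11 (0.71 to 0.72). The lowest were Cpne2 (-0.71), Hpcal1 (-0.70), Oxtr, Timp2 and Plxnc1 (-0.67). No clock gene of the lists was among them, and Dbp ranked 621st from the bottom. These values over 70 libraries are a description, since the libraries share cell makeup and depth.

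Among other genes of the clock, those called were mostly lower than in sedentary. Of a list of 17, 15 were tested, and 5 were called in 14-0-0, 5 in 14-7-2, 3 in 0-0-2, 3 in home cage, 2 in 14-7-0 and 1 in 14-14-0. Of these calls, all but those of Usp2, a deubiquitinase under clock control, were lower than sedentary. Of all genes tested, 3.04% were called lower in 14-0-0, 2.32% in 14-7-2, 1.23% in 0-0-2 and 1.08% in home cage. In 14-7-0 and 14-14-0 these shares were 1.66% and 1.75%. The shares called higher were 6.11%, 2.07%, 1.14%, 1.22%, 1.6% and 3.19% in the same order of groups. All 6 comparisons share the sedentary libraries. Ciart fell by 0.71 ± 0.15 on the log2 scale (SE) in 14-0-0 (limma p = 0.000153), and by 0.42 to 0.48 in 14-7-2, home cage and 0-0-2. Per2, a core repressor of the clock, fell in 5 of 6 comparisons, by 0.45 ± 0.09 in 14-0-0 (p = 7.209e-05), by 0.43 ± 0.14 in home cage and by 0.24 to 0.28 in 14-7-2, 0-0-2 and 14-7-0. Per1 was called lower in 14-0-0 (-0.45), home cage (-0.45) and 14-7-2 (-0.37), Per3 in 14-0-0 (-0.40) and 0-0-2 (-0.36), and Cry1 in 14-7-2 (-0.29). Usp2 was called higher in 14-0-0 (0.25), 14-7-0 (0.20), 14-7-2 (0.20) and 14-14-0 (0.19). Without sedentary replicate 6, 9 were called in 14-0-0, among them the 5 above, and 2 in 14-14-0 (Per2 at -0.24 and Fbxl21 at 0.23). Usp2 was then called in 14-0-0 only (0.21). The counts in 14-7-2, 0-0-2 and home cage were again 5, 3 and 3, and in 14-7-0 only Per2 was called. The shares of all genes called without that library are not given here. Over the 7 groups only Ciart had an adjusted p under 0.05 in the F test (0.0439).

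Targets of the PAR bZIP factors known from other organs were a further list. None of 6 (Pdxk, Alas1, Por, Pdxp, Gamt and Slc6a6) was called in any comparison with sedentary or between the 7 groups by limma, and Pdxp was called higher in cohort 2 (0.10 ± 0.04 SE, p = 0.0168, adjusted 0.279). None was called against sedentary without replicate 6 either. Their median log2 difference lay between -0.13 in 14-0-0 and -0.06 in 0-0-2.

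The choroid plexus epithelium list was called higher in 14-0-0 and 14-14-0 (7 of 7 genes each) and in home cage (3 of 7). Its summed level ran from 36.5 to 16080 FPKM in 14-0-0 and from 44.8 to 21820 in 14-14-0, against 24.4 to 370.5 in sedentary, and its part in the differences of single members was not tested beyond the fits with its score. Of 5 meningeal genes, 2, 4 and 2 were called higher in 14-0-0, 14-14-0 and home cage, and 3 of 6 oligodendrocyte genes were lower in 0-0-2.

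The F test of Dbp and of Arntl kept an adjusted p under 0.05 with the score of each of 12 marker lists as a covariate, at 0.0012 to 0.0222 for Dbp and 0.00471 to 0.0488 for Arntl. It did so too with each of the 70 libraries left out in turn, at 0.00635 to 0.0357 and 0.00304 to 0.0443. These covariates were chosen after the data were seen. With the sedentary libraries left out, adjusted p was 0.0164 for Dbp and 0.118 for Arntl. With the 14-14-0 libraries left out it was 0.102 for Dbp and 0.309 for Arntl, and with home cage left out 0.0259 and 0.0231.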

How the data were processed

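The RNA of 70 dorsal hippocampi was sequenced as 50 bp single reads. Per the labels and methods, the authors aligned reads with ELAND v2e and Bowtie to mm10, removed reads with more than 2 mismatches or several locations, and deposited FPKM made with Cuffnorm. Annotation, versions and scaling between libraries are not given in the sources used here, nor is strand. The sum of FPKM per library was 382574 to 469206. The table holds FPKM and no counts. The read totals that the study lists by lane and index were not used here, as no label ties those names to libraries, so no counting error is given.

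The members and lists were chosen with earlier results of these data known. The 12994 of 24346 genes whose mean reached 1 FPKM were tested on log2(FPKM + 0.1), so fold changes of low genes are understated. Each group was compared with sedentary on 20 libraries by limma 3.58.1 (R 4.3.3, two-sided, trend), called at an unadjusted p under 0.05, with Benjamini-Hochberg adjustment over all 12994 genes. An F test over the 7 groups had the cohort as a covariate, the cohort test had the group, and an interaction tested cohort differences. Each mouse gave 1 library. Pairs of groups (21 per gene, a test added after seeing the data) and correlations (45 pairs, permuted within group and cohort) had 100000 two-sided permutations, adjusted over the pairs. The limma fits (pairwise, cohort, interaction and F test over the 7 groups) and the permutation of correlations were tried on simulated data. The permutation of pairs of groups was not. Named genes are the 10 members, list genes that were called, and the 10 highest and 5 lowest correlations with Dbp and Arntl. Alternatives were pseudocount, filter, scaling, quantile normalization, covariates, a replicate block, a joint fit, Cyber-T (recoded, with 101 neighbouring genes for its prior variance and a prior weight of 10), permutation, each cohort alone and single libraries left out. Loci are from GENCODE and promoters from RefSeq on mm10. Python 3.11.15 with scipy 1.17.1 was used.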

Additional observations from a re-analysis of the deposited data

Results flagged for a closer look

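In each group of 10 libraries, the lowest or highest value of a member was set against the rest by the gap to its neighbour. Of 70 sets, 4 held a value past Dixon's 95% critical value, where chance gives about 3.5. Arntl in sedentary replicate 6 was 8.223 FPKM, next to 10.93 for the second lowest. Npas2 in the same library was 8.66 FPKM, next to 5.13 for the second highest. Nfil3 in 14-7-0 replicate 4 was 8.899 FPKM, next to 6.38, in the library where 10279 genes were listed at 0 against 6243 to 7199 elsewhere. Tef in 14-7-0 replicate 0 was 115 FPKM, next to 104.1.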

How the results depend on the processing

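Among the 12 calls of members against sedentary, the direction held under every alternative tried, and no call reversed. Dbp and Arntl kept their calls in 14-0-0, 0-0-2 and home cage except within single cohorts of 5 against 5, and Arntl in 14-7-2 kept its call in both. The count of members called fell from 1 to 0 in 14-7-0 with a replicate block, with Cyber-T, in cohort 1 alone and in cohort 2 alone. In 14-7-2 it fell from 2 to 1 with quantile normalization, the cohort as a covariate, a replicate block, Cyber-T, permutation of the labels and in cohort 2 alone. In cohort 2 alone it was 2 in 14-0-0 (from 4), 1 in 0-0-2 (from 3) and 0 in home cage (from 2). It rose from 3 to 5 in 0-0-2 in a joint fit and with the dentate granule cell score as a covariate, from 2 to 4 in home cage with the choroid plexus score, from 0 to 1 in 14-14-0 with the dentate score, and from 0 to 1 between cohorts with median ratio scaling (Rorb, higher in cohort 2). With the dentate score the count in 14-7-0 was again 1, but Arntl lost its call and Tef gained one. The cause was not tested. With 1 library left out, counts ran from 3 to 4 in 14-0-0, 0 to 1 in 14-7-0, 1 to 3 in 14-7-2, 3 to 5 in 0-0-2, 2 to 3 in home cage, 0 to 0 in 14-14-0, 3 to 6 between the 7 groups, 0 to 2 between cohorts and 0 to 1 for the interactions. Without sedentary replicate 6 they were 0 in 14-7-0, 5 in 0-0-2 and 1 for the interactions.

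Libraries with the same replicate number correlated somewhat more in their deviations than libraries with different numbers. Over the 210 pairs with the same number r ran from -0.41 to 0.71, with a median of 0.09, and was over 0.1 in 96. For different numbers of the same cohort the median was -0.02, and 203 of 840 pairs were over 0.1. Of 70 libraries, 28 correlated best with their own number, of 5 numbers per cohort. With the replicate block in place of the cohort term, 5 members were called between the 7 groups, beside 11.34% of all genes tested. With a replicate block added to the comparisons with sedentary, 4 members were called in 14-0-0, where Tef lost its call and Nr1d1 gained one. Nr1d1 was also gained in home cage (3 calls), and 0-0-2 had 3 calls.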
